A study of Drosophila melanogaster with 4 samples.

Results

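Doublesex binding was examined at 9 genes of the Drosophila melanogaster sex determination cascade other than dsx itself: Sxl, tra, tra2, fru, ix, her, vir, fl(2)d and snf. The genes were taken from the known pathway and not from measured values. They are 9 of the 13968 protein-coding genes annotated on the chromosome arms. The data are ChIP-seq peak lists, which give the positions where chromatin recovered with an antibody was enriched. A summit, the highest point of a peak, was assigned to a gene when it lay in the gene's span or within 5 kb of it in the dm6 genome. All 4 samples belonged to 1 group of whole prepupae aged 24 h, with males and females pooled, from a strain (dsx-GFP) that stably expresses Doublesex with GFP at its C terminus. The 4 were labelled as biological replicates 1 to 4, and the antibody was against GFP.

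Each replicate had its own list of 30000 summits. From replicates 2, 3 and 4 the authors also made a pooled list of the same length and a shorter one of 9154 reproducible summits. Replicate 1 is therefore the only sample outside both lists. The lists give no read counts, so the depth behind them is unknown. The signal value of a peak is the authors' own score and is not comparable between lists, so ranks within a list (1 is the strongest) are set side by side. With no second group and no separate sexes, nothing here compares conditions, and no difference was tested. The summits cannot be assigned to a tissue, a sex or 1 of the Doublesex isoforms.

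Sex in Drosophila is set in each cell by a chain of alternative splicing. Sxl, an RNA-binding protein made in females, keeps its own female splicing going and directs the female splicing of tra. Tra, with its RNA-binding partner Tra2, then directs the splicing of dsx and of fru. The proteins encoded by snf, vir and fl(2)d are needed for the splicing of Sxl. Downstream, Intersex (ix) and Hermaphrodite (her) act together with or beside Doublesex. Doublesex is thus the last step of the chain, and a summit at an upper gene is a summit of the last factor at a gene that controls it. A summit is not evidence that the gene's expression depends on Doublesex, and no expression was measured.

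Reproducible summits lay at 5 of the 9 genes, namely Sxl, fru, her, tra and fl(2)d, with 15 summits in all. The genes tra2, ix, vir and snf had none. The share of 55.6% is near the background, since 52.3% of all protein-coding genes had a reproducible summit in the span or within 5 kb. Gene length bears on this share, so each length class is given beside its own background. Of the 6 members under 5 kb, 3 had one, where 47.1% of all genes under 5 kb did. Both members over 20 kb, Sxl and fru, had one, beside 74.3% of genes of that class, and vir, the only member from 5 to 20 kb, had none, beside 65.6%. In the longer pooled list 7 of the 9 genes had a summit, beside 66.6% of all genes, with 63 summits in their windows. The exceptions were tra2 and vir, which had none there either.

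The assignment by distance includes summits that lie at neighbouring genes. Of the 15 reproducible summits, 10 had a start of the member as the nearest transcription start, and 9 lay within the member's span. By the nearest start, 3 members had a reproducible summit, namely Sxl, fru and fl(2)d, beside 25.2% of all protein-coding genes. The summits at tra and her lay nearest to starts of other genes. By position, 8 of the 15 were in introns, 6 were within 500 bp of a start of some gene and 1 was in a 5′ UTR. The windows of tra, tra2, ix and vir each overlapped 6 other protein-coding genes, and that of snf overlapped 8.

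The members differed in how far their starts were from the nearest reproducible summit. The distance was 138 bp for Sxl and 145 bp for fl(2)d, so that at most 13.5% of all protein-coding genes had a nearer one. For fru it was 644 bp and for tra 2913 bp. For ix, her and snf it was 6398 bp, 7213 bp and 8204 bp, close to the median of 5761 bp over all genes. The farthest were vir, at 17023 bp, and tra2, at 24426 bp, where 84.1% of all genes had a nearer summit.

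**Figure D1:**
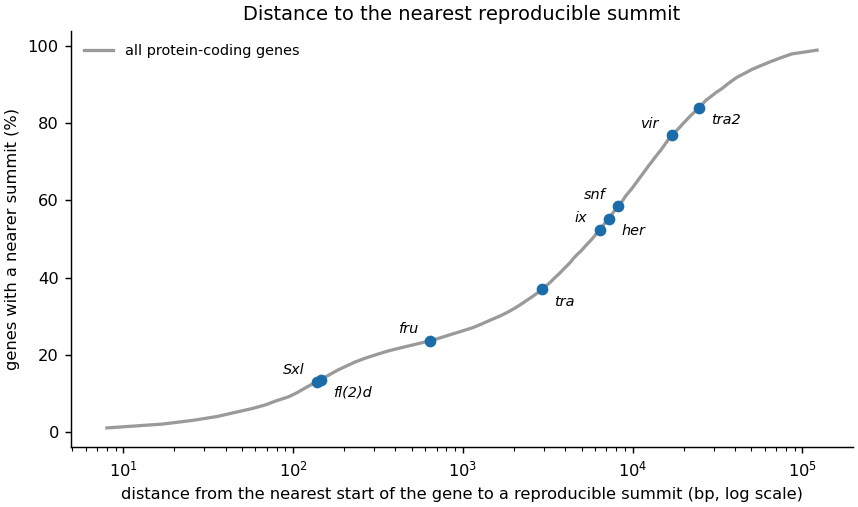
Distance from the nearest transcription start of each gene to the closest reproducible summit (bp, log scale) against the percentage of protein-coding genes with a nearer one. The grey curve is all genes and each blue point is 1 of the 9 genes. Sxl (138 bp) and fl(2)d (145 bp) lie at the lower left and tra2 (24426 bp) is the farthest to the right.

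The replicates gave the same picture for some genes and not for others. Among the strongest 10000 summits of each list, summits lay at 7, 9, 5 and 6 of the 9 genes, taking the replicates in order. The mean was 6.75 ± 1.71 (SD, n = 4), and the share of all protein-coding genes called in the same way was 56.6%, 58.3%, 54.9% and 54.6%. Sxl, fru, ix, her and fl(2)d had at least 1 such summit in every replicate. tra2 and snf had one in replicate 2 alone, vir had one in replicates 1 and 2, and tra had none in replicate 3.

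**Figure D2:**
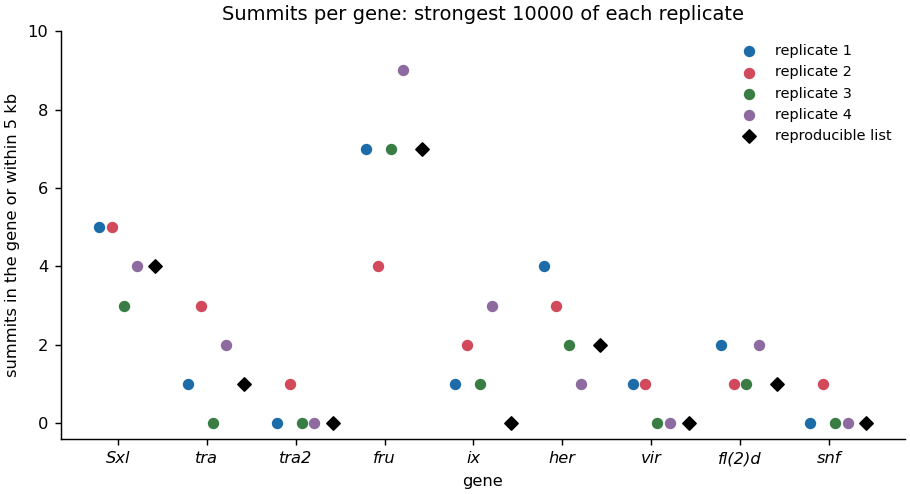
Number of summits in each gene or within 5 kb among the strongest 10000 of each replicate (coloured points) and in the reproducible list (black diamonds). The highest counts were at fru, with 4 to 9 per replicate, and Sxl, with 3 to 5. tra2 and snf show a single point above 0, that of replicate 2.

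The reproducible summits at these genes were sought in each replicate. A replicate held such a summit when 1 of its strongest 10000 summits lay within 100 bp. Replicates 1 to 4 held 9, 11, 10 and 10 of the 15, and their mean share was 66.7% ± 5.44 (SD, n = 4). Over all 9154 reproducible summits the mean was 81.1% ± 5.08 (SD, n = 4). All 4 replicates held 5 of the 15 (33.3%), where the share over all reproducible summits was 53.2%. The 5 were a pair at Sxl, a pair at fru and the stronger one in the her window. The difference was not tested, and 15 summits from 5 genes are not independent.

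Sxl, the master switch of the cascade (FBgn0264270, X 7074550 to 7098053, minus strand), had 4 reproducible summits, at its 5′ end and upstream of it. The strongest was at X 7101743, 3690 bp upstream of the outermost start, with a pooled signal value of 1466 and pooled rank 879. It ranked 594, 1020, 1019 and 855 in replicates 1 to 4. Its mean rank was 872.0 ± 201 (SD, n = 4), and every replicate placed it among its strongest 1020 summits. This summit lay in an intron of the neighbouring gene CG4615, and the start of CG4615, 557 bp away, was nearer than any start of Sxl.

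The other 3 summits lay within Sxl, a gene of 23504 bp, and none was more than 2330 bp from the outermost start. The second in strength, at X 7096720 (pooled signal value 710, rank 2623), ranked 1473, 2282, 4737 and 3141 in replicates 1 to 4. The third, at X 7095723 in an intron (pooled signal value 643, rank 2975), ranked 2076, 2811 and 2684 in replicates 1 to 3 but 11697 in replicate 4. The weakest, at X 7097906 (266, rank 8771), was not listed within 100 bp in replicate 1 and ranked 5375, 11558 and 24659 in the others. From the summit at X 7095723 to the 3′ end of Sxl there was no further summit in the pooled list or in replicates 3 and 4. Replicates 1 and 2 had a few there, at ranks from 11638 to 28368. In 23504 bp plus flanks the density was 1.19 reproducible summits per 10 kb, beside 0.684 over the chromosome arms. Of 350 protein-coding genes of 20 to 30 kb, 65.7% had fewer than 4, so Sxl was not at an extreme of its length class.

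Of the 4 distinct transcription starts of Sxl, 3 held a reproducible summit within 500 bp. The summit at X 7097906 lay 147 bp downstream of the outermost start at X 7098053, from which 18 of 25 annotated transcripts begin, and 138 bp upstream of the start of transcript Sxl-RG at X 7097768. The summit at X 7096720 lay 346 bp downstream of the start at X 7097066, that of Sxl-RA and Sxl-RE. Each of these 3 starts also had a summit within 500 bp in each replicate's full list. The fourth start, at X 7092883, lies 5170 bp inside the outermost one and begins Sxl-RC, Sxl-RN, Sxl-RO and Sxl-RR. No list had a summit within 500 bp of it, and the nearest reproducible one was 2840 bp upstream. Sxl is known to have an early promoter, active only in young female embryos, inside the gene and downstream of the promoter that both sexes use later. The annotation used here does not name the promoters. Over all protein-coding genes, 21.3% of distinct starts had a reproducible summit within 500 bp.

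**Figure D3:**
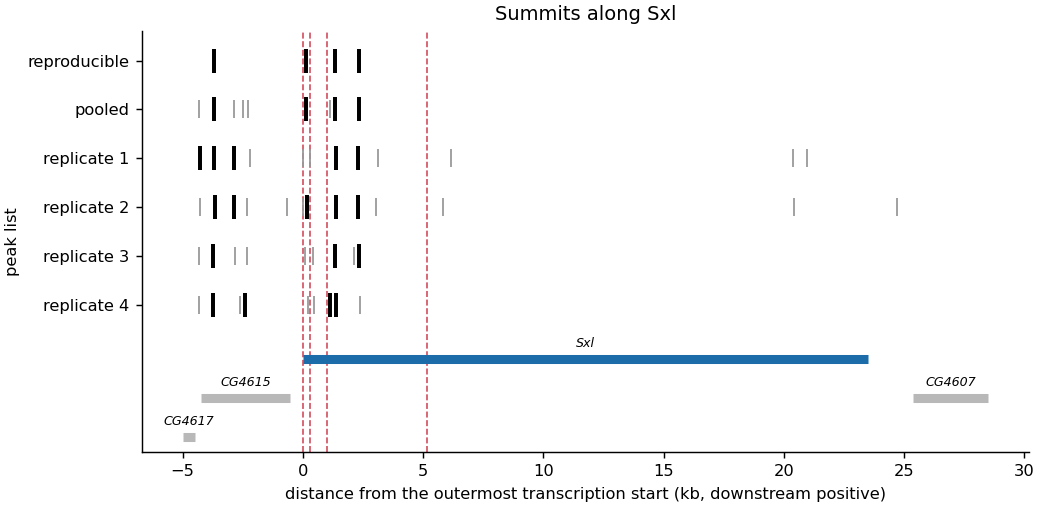
Summits along Sxl in each peak list, by distance from its outermost transcription start (kb, downstream positive). Thick black marks are among the strongest 10000 of their list, thin grey marks are weaker, dashed red lines are the 4 starts, and bars are genes. The 4 reproducible summits lie from 3690 bp upstream to 2330 bp downstream of the outermost start. Further marks lie upstream of these in the other 5 lists, thin except that of replicate 1 (rank 9107). Thin marks lie farther downstream in replicates 1 and 2, and no mark lies within 500 bp of the start farthest to the right.

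The DNA under 2 of these summits is given to show what the antibody recovered at the master gene. Each line is the 101 bases centred on the summit, plus strand of dm6, from the RefSeq sequence. The known core of the Doublesex site, ACAATGT, and its variant ACAAAGT, which differs from it at a single base, were sought on both strands. Neither was found in these windows, so no letters are in capitals.
Sxl summit 1, chrX:7101693-7101793: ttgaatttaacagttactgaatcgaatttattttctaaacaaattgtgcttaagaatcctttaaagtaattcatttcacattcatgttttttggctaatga
Sxl summit 2, chrX:7096670-7096770: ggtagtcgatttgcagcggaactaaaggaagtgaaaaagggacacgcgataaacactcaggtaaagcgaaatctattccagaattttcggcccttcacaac

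The proteins encoded by snf, vir and fl(2)d act with Sxl on the splicing of its own RNA. Snf is a component of the spliceosome's small nuclear ribonucleoproteins. Virilizer (vir) and Fl(2)d belong to the complex that methylates adenosines in messenger RNA. Of these genes fl(2)d alone had a reproducible summit. It lay at 2R 13824698, 145 bp upstream of the only annotated start of fl(2)d (FBgn0000662, 2R 13819624 to 13824553, minus strand), with a pooled signal value of 476 and rank 4417. It ranked 17825, 5670, 3420 and 4091 in replicates 1 to 4. The mean of 7752 ± 6782 (SD, n = 4) rests on replicate 1, which is also the sample outside the pooled list, and without it the mean rank was 4394. A further 3 pooled summits lay inside fl(2)d, at pooled ranks from 10631 to 16540.

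At snf (FBgn0003449, X 5309242 to 5310501, plus strand) the summits were weak but close to the start. The pooled list had one 123 bp upstream, at X 5309119, with rank 13067, below the reproducible set. Every replicate listed a summit within 156 bp of the start, at ranks 15696, 12372, 11766 and 11935 in replicates 1 to 4. None of these was among the strongest 10000 of its list. At vir (FBgn0003977, 2R 23360192 to 23366355, minus strand) replicates 3 and 4 and the pooled list had no summit in the window at all. The summits of replicates 1 and 2 there all lay beyond the 3′ end of vir, at least 7080 bp from its start. The strongest, at ranks 5035 and 5179, were within the span of Rpi, which encodes ribose-phosphate isomerase.

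**Figure D4:**
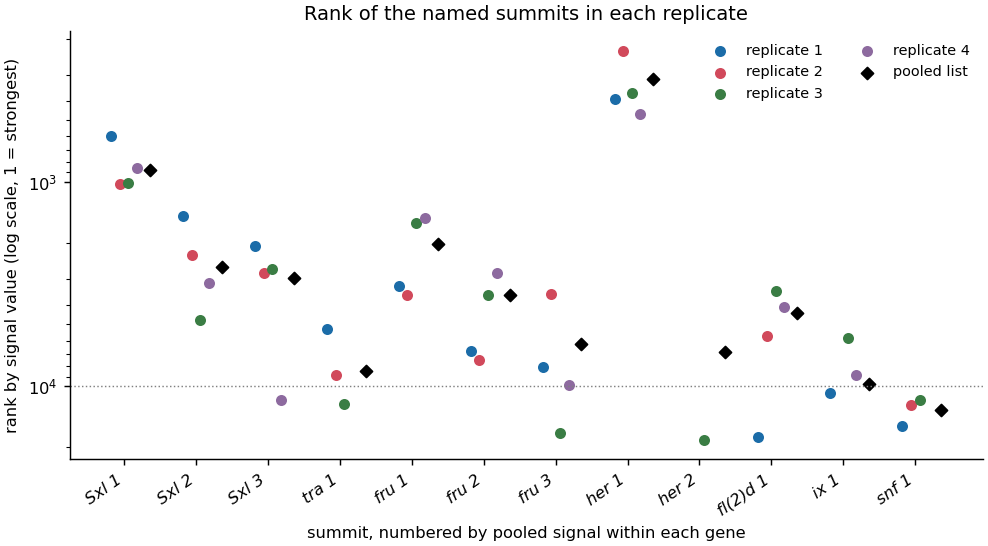
Rank by signal value of each named summit in replicates 1 to 4 (coloured points) and in the pooled list (black diamonds), on a log scale with the strongest at the top. Summits are numbered by pooled signal value within each gene, a missing point means that no summit was listed within 100 bp, and the dotted line marks rank 10000. The first her summit (228 to 463) and the first Sxl summit (594 to 1020) are the highest, and fl(2)d shows 1 low point, that of replicate 1.

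tra and tra2 encode the pair of splicing regulators that pass the female signal on. tra (FBgn0003741, 3L 16590059 to 16591050, minus strand) had 1 reproducible summit in its window, at 3L 16588137 with a pooled signal value of 274 and rank 8505. It lay beyond the 3′ end of tra, 2913 bp from its start, in the span of CG32163 and 332 bp from the start of the antisense RNA gene asRNA:CR45895. It ranked 5251, 8805 and 12244 in replicates 1 to 3 and was not listed within 100 bp in replicate 4. A pooled summit 203 bp away, at 3L 16588340 (rank 13109), was listed within 100 bp by replicate 4 alone, at rank 6722. The start nearest to that summit was that of l(3)73Ah, 135 bp away. Replicate 4 thus had a summit near this site, though not within 100 bp of the reproducible one. At the start of tra itself only weak summits of single lists were found, 42 bp upstream in replicate 1 (rank 23218) and 27 bp downstream in replicate 2 (rank 19558).

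tra2 (FBgn0003742, 2R 14602004 to 14604337, minus strand) was the member with the fewest summits. Its window had none in the reproducible and pooled lists and none in replicates 1, 3 and 4. Replicate 2 alone had a summit there, 1128 bp upstream of the start, with rank 2466 and a signal value of 201. A summit of that rank was thus absent from the pool that included the same replicate.

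fru encodes a family of zinc-finger transcription factors, and the transcripts from its outermost promoter are spliced by sex. Tra and Tra2 direct the female splicing, and the male form, which directs courtship, is made where Tra is absent. It is the longest member (FBgn0004652, 3R 18414273 to 18545586, minus strand, 131314 bp) and had 7 reproducible and 35 pooled summits. At 0.495 reproducible summits per 10 kb its density was below the 0.684 of the chromosome arms. Of the 87 protein-coding genes of at least 100 kb, 65.5% had fewer than 7, and the median was 4. Of the 7 summits, 6 lay in introns of fru. The other, at 3R 18412488, lay beyond its 3′ end in CG31122, 386 bp from the start of that gene.

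The strongest summit in fru was at 3R 18456433, with a pooled signal value of 857 and rank 2020. It ranked 3226, 3575, 1593 and 1497 in replicates 1 to 4 and was among the strongest 10000 in all of them. Its mean rank was 2473 ± 1081 (SD, n = 4). It was 6179 bp upstream of the start of fru-RD, the nearest. The second, at 3R 18469674 (562, rank 3573), ranked 6788, 7430, 3585 and 2790 and was 11002 bp from any start of fru. In both cases replicates 3 and 4 ranked the summit higher than replicates 1 and 2. The third, at 3R 18439415 (360, rank 6234), lay 644 bp upstream of the start of fru-RM and ranked 8056, 3558, 16961 and 9924. The other summits inside fru had pooled ranks of 6957, 7936 and 8851.

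None of the 7 distinct starts of fru held a reproducible summit within 500 bp, beside 21.3% of all distinct starts of protein-coding genes. In the pooled list 3 of the 7 did, where the share over all starts of protein-coding genes was 37.9%. These were the start of fru-RM at 3R 18438771 (summit 450 bp downstream, pooled rank 18330), that of fru-RA and fru-RL at 3R 18447329 (35 bp downstream, rank 20547) and that of fru-RK at 3R 18480676 (474 bp upstream, rank 19225). At the fru-RM start every replicate listed a summit within 500 bp, and the strongest of them ranked 4323, 20238, 8609 and 9020 in replicates 1 to 4. The starts of fru-RI and fru-RJ, at 3R 18506562 and 3R 18504066, had none in any list. For the fru-RD start at 3R 18450254, only replicates 3 and 4 listed one. These lay 203 bp upstream (rank 29818) and 445 bp downstream (rank 29197).

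The 5′ part of fru was nearly without summits. The outermost start at 3R 18545586, from which 8 of 15 annotated transcripts begin, was 28407 bp from the nearest reproducible and 19823 bp from the nearest pooled summit. No pooled summit lay between 3R 18502286 and 3R 18565409, a stretch of 63123 bp that holds the 3 upper starts. Of the 29994 gaps between neighbouring pooled summits, 207 (0.690%) were as long, and the median gap was 1182 bp. This share counts gaps and not bases. Longer gaps cover more bases, so the part of the chromosome arms in gaps this long is larger than 0.690%, and it was not computed. This stretch was picked after its values were seen. Replicates 1 and 2 had no summit in it, and replicates 3 and 4 had 3 and 2, at ranks from 15302 to 25412. One of these, in replicate 3 at rank 25412, was 178 bp upstream of the outermost start. The part that read mapping in this stretch has in the absence of summits was not tested. The 35 pooled summits were all between the fru-RJ start and the 3′ side of the gene. Of these, 14 were in the 30.4 kb between the starts of fru-RK and fru-RD. Another 12 were in the 23.4 kb between those of fru-RJ and fru-RK, and 5 in the 8.56 kb between those of fru-RA and fru-RM.

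**Figure D5:**
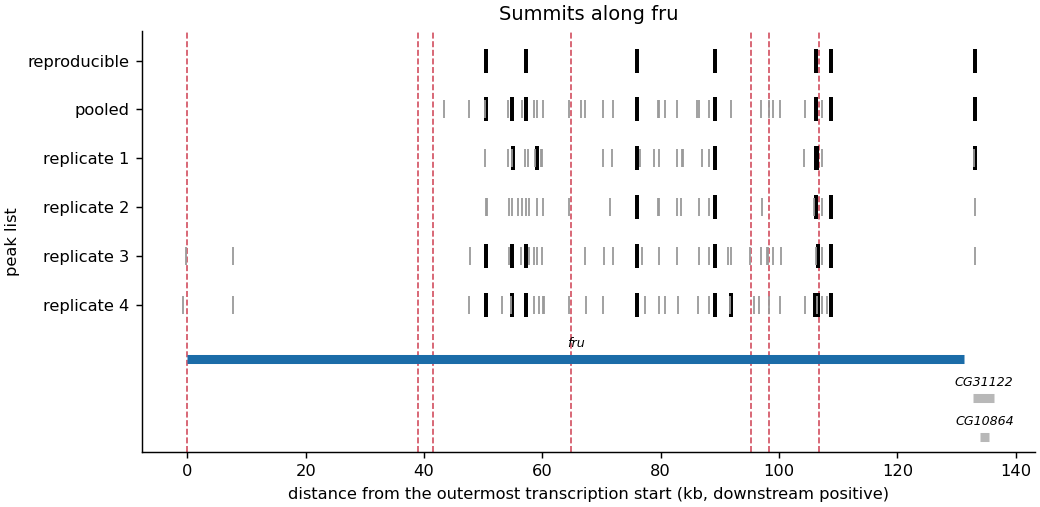
Summits along fru in each peak list, by distance from its outermost transcription start (kb, downstream positive). Thick black marks are among the strongest 10000 of their list, thin grey marks are weaker, dashed red lines are the 7 starts, and bars are genes. From the left edge to beyond the third start there are only 4 grey marks, of replicates 3 and 4, and the reproducible summits begin 50.5 kb downstream.

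Sequences related to the Doublesex core were present under a few of the fru summits. ACAATGT lay within 50 bp of 2 of the 35 pooled summits at fru, beside 4.78% of all pooled summits. The 2 were at 3R 18481150, which is the one 474 bp upstream of the fru-RK start, and at 3R 18453671. Neither summit is in the reproducible set, so none of the 7 reproducible summits at fru had ACAATGT, beside 8.06% of all reproducible summits. ACAAAGT lay within 50 bp of 2 of the 7 reproducible summits at fru, beside 6.84% of all reproducible summits. These were at 3R 18439415 and 3R 18495079, and both also matched the longer degenerate consensus of the Doublesex site. They were also the only 2 of the 35 pooled summits at fru with ACAAAGT, beside 4.68% of all pooled summits. No difference was tested. The windows of 101 bases, plus strand of dm6 from RefSeq, are given with the match in capitals.
fru summit upstream of fru-RK, chr3R:18481100-18481200: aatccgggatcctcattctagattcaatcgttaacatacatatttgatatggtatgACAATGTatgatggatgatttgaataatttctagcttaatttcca
fru summit upstream of fru-RM, chr3R:18439365-18439465: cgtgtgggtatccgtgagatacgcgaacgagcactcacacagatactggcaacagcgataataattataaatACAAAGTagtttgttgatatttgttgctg
fru summit in an intron, chr3R:18495029-18495129: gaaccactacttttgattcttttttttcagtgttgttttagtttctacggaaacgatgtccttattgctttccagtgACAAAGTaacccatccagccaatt

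her and ix encode proteins that work beside Doublesex. Hermaphrodite is a zinc-finger protein, and Intersex is a Mediator subunit that female Doublesex needs as a partner. The window of her (FBgn0001185, 2L 16677185 to 16679691, plus strand) held the strongest summit of the whole set, at 2L 16684398 with a pooled signal value of 2418 and rank 315. It ranked 393, 228, 367 and 463 in replicates 1 to 4. Its mean rank was 363 ± 98.6 (SD, n = 4). The summit was 4707 bp beyond the 3′ end of her, just inside the limit of 5 kb, and would not count at 2 kb. It lay in the span of grp, which encodes a checkpoint kinase, and 390 bp from the start of CG31807, the nearest. A second reproducible summit 203 bp away, at 2L 16684601 (332, rank 6848), was in the same peak interval and was listed within 100 bp by replicate 3 alone, at rank 18421.

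The window under the strongest of these summits held ACAAAGT, read on the minus strand. The plus strand given here thus shows its reverse complement in capitals (101 bases, dm6, from RefSeq). The match was centred 12 bp from the summit.
summit in the her window, chr2L:16684348-16684448: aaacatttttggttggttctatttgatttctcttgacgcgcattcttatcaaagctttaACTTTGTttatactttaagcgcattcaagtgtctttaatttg

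At the start of her itself a weak summit was present 25 bp upstream in the pooled list (2L 16677160, signal value 186, rank 12407). Replicates 2, 3 and 4 listed it at ranks 10623, 9569 and 19825, and replicate 1 had none within 500 bp of the start. ix (FBgn0001276, 2R 11359437 to 11360163, minus strand) had 4 pooled summits and no reproducible one. The strongest, at 2R 11365021 (signal value 237, rank 9824), was 4858 bp upstream and 1689 bp from the start of CG13204, and ranked 10900, 5816 and 8800 in replicates 1, 3 and 4 without being listed within 100 bp in replicate 2. The others lay 28 bp from the start of CG12384 and 269 and 479 bp from that of san. At the ix start there were only weak summits, at ranks 18236, 20800 and 28255 in replicates 1, 3 and 4.

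Over all members the Doublesex core was not found at any reproducible summit. None of the 15 had ACAATGT within 50 bp, for which the exact Clopper-Pearson interval reaches 21.8% (95%, counting error only). The share over all reproducible summits was 8.06%, so a lower share is not detectable with 15 summits. ACAAAGT was at 3 of the 15 (interval 4.33% to 48.1%), beside 6.84% of all reproducible summits. The longer consensus was at 2 (interval 1.66% to 40.5%), beside 6.07%. Both intervals cover the share over all reproducible summits. Of the 63 pooled summits at members, 3 (4.76%) had ACAAAGT, beside 4.68% of all pooled summits. The longer consensus was at 2 of the 63 (3.17%), beside 3.50%. The windows of the 9 genes held 52 copies of ACAATGT, 23 of them in that of fru, 8 in that of Sxl and none in those of tra2 and vir. A pooled summit lay within 50 bp of 2 of the 52, both in fru, and a reproducible one of none. Over the chromosome arms 6.37% of 23597 copies had a pooled and 3.26% a reproducible summit that near, so most copies anywhere had none.

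Other genes of the pathway were counted in the same way. Of 23 such genes, 19 (82.6%) had a reproducible summit in the span or within 5 kb, beside the 52.3% of all protein-coding genes. They included 6 of 8 X-chromosome signal genes and their partners, 9 of 10 genes of RNA methylation and splicing that act with vir, fl(2)d and snf, both splicing partners of tra counted here, and dsx and dsf of 3 downstream genes. The list was not tested against other genes, and it includes dsx, which the 9 members leave out. As at the members, assignment by distance includes summits at neighbouring genes. Only for gro, Spf45, Doa and dsx was a start of the gene itself the nearest to its strongest reproducible summit. For sisA, da, B52 and Mettl3, for example, starts of Gapvd1, mRpS7, Hrb87F and KrT95D were the nearest. Apart from dsx (signal value 68022), the strongest summits were those for Hakai (1367), gro (1358) and U2af50 (1320). Hakai encodes a ubiquitin ligase of the methylation complex, and its summit, at 2L 19575793, lay in the span of spi, the gene of an Egfr ligand. gro encodes the Groucho corepressor, and its summit was 155 bp upstream of a start of gro. U2af50 encodes the large subunit of the splicing factor that recognises 3′ splice sites. Its summit was 135 bp upstream of its start, in the span of PIG-Q, which had the nearest start. The downstream dosage compensation gene msl-2, the signal gene run and nito of the methylation complex had no summit in either list, and sc had pooled summits only.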

How the data were processed

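Peak lists from ChIP-seq of 4 samples of 1 group were analysed. Per the deposited text notes, coordinates are dm6 and every replicate had 1 control. Replicates 2, 3 and 4 were joined for the pooled list, from which the irreproducible discovery rate (IDR), at its optimal threshold, left the reproducible list. The sources used here name no aligner, caller or IDR cutoff. The score used is the authors' deposited signal value of each peak, not normalized between lists. The deposited −log10 q-value reaches a ceiling and was not used.

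Summits are printed as 1-based positions. Gene models are from Ensembl release 115 and bases from RefSeq, on an assembly whose arms hold all summits. Transposable elements were left out as genes. A promoter summit lay within 500 bp of a start, and support meant a summit within 100 bp among the strongest 10000 of a replicate. Counting was tested on simulated summits. Python 3.11.15, pandas 2.3.3 and NumPy 2.4.6 were used. All members are described, with at most 3 reproducible summits each by rank and, where there was none, the strongest pooled one, and the 4 pathway genes with the highest signal value. The pathway counts leave out 1 gene of the planned list, which is not reported here. Further summits of these windows were named after their values were seen. The members, lists and rules were chosen with earlier results of these data known, so no difference was tested, and Dixon's ratio over the replicates was the only test. Alternatives covered distances, lists, ranks, replicates, motifs and windows. Depth is unknown.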

Additional observations from a re-analysis of the deposited data

Results flagged for a closer look

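Of 18 measures over the 4 replicates, 4 had 1 replicate far from the others by Dixon's ratio, the gap to the nearest other replicate over the whole range, against its 95% critical value. Chance marks about 1 group in 20, and counts of 0 and 1 reach a ratio of 1 whenever a single replicate differs. The Sxl summit at X 7095723 had a ratio of 0.924, since replicate 4 ranked it 11697 and the others between 2076 and 2811. The fl(2)d summit at 2R 13824698 had a ratio of 0.844, with rank 17825 in replicate 1 and 3420 to 5670 in the others. The number of summits among the strongest 10000 had a ratio of 1 at tra2 and of 1 at snf, where replicate 2 had 1 summit and the others 0.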

How the results depend on the processing

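Of 74 values under alternative settings, 59 stayed within 1.5 times a count or within 1 SD of a replicate mean, and 15 did not. With the gene span alone in place of 5 kb around it, 2 genes (Sxl and fru) had a reproducible summit with 9 summits, 4 had a pooled summit, and the mean per replicate was 2.50. Counting a summit for the gene with the nearest start alone left 3 genes. At 10 kb there were 26 reproducible summits, with ix and snf added to the genes, and the strongest 4577 summits of the reproducible list held 7 at these genes. With the strongest 5000 summits of each replicate the mean number of genes was 4.00. With 20000 or all 30000, 9 of the 15 summits were held by every replicate. Within 1000 bp, 1 start of fru held a reproducible summit, and with the pooled list 3 did. ACAATGT lay within 100 bp of 1 of the 15 summits, ACAAAGT within 50 bp of 3 and the longer consensus of 2. Without 1 replicate, the mean number of genes per replicate was between 6 and 7.33, and 5 to 7 summits were held by all the others. The pooled and reproducible lists are fixed files and could not be remade without a replicate. No paired analysis was possible because there is 1 group. Unknown depth, pooled sexes, whole animals and lists of fixed length limit all counts, and the cause of each shift was not tested.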
